A study of Mus musculus with 5 samples.

Results

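The RXRα peaks described here lie near 8 genes grouped here as PPAR targets of fat storage and fat burning: Plin2, Cidec, Angptl4, Cpt1a, Pdk4, Ucp2, Ucp3 and Txnip. A peak was taken as a member where the transcription start site (TSS) nearest to its midpoint, among protein-coding genes of the GENCODE annotation of mm10, was that of 1 of these genes. The rule found 69 of the 14808 peaks in the 4 lists. WT A held 17 of them (of 4751 peaks) and WT G 44 (of 9766), while KO A held 4 (of 83) and KO G 4 (of 208). The nearest TSS is a rule of position, and the lists do not show which gene a peak acts on.

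Binding of RXRα was profiled by HT-ChIPmentation, a form of ChIP-seq in which a transposase adds the sequencing adapters while the chromatin is still on the beads. The cells were alveolar macrophages (AMs), which live in the air spaces of the lung, taken by bronchoalveolar lavage from adult mice and sorted. WT A and WT G came from mice labelled CD11cCre- Rxrabfl/fl, and KO A and KO G from mice labelled CD11cCre+ Rxrabfl/fl, so all 4 libraries carried the floxed Rxra and Rxrb alleles and only the KO mice carried the Cre. The Cre is driven by the Cd11c promoter, which is also active in other CD11c+ cells, and the antibody was raised against RXRα, so binding of RXRβ was not measured. The labels do not say whether A and G are separate mice or pools, and peak lists can check neither the AM markers nor the deletion. An input library served as control for all 4 lists.

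RXRs are nuclear receptors that bind DNA as partners of other receptors, among them the PPARs, which are activated by fatty acids and their derivatives. The PPAR-RXR pair recognises a DR1 element, a direct repeat of the hexamer AGGTCA with 1 base between the copies. AMs take up and break down the lipids of the surfactant, and PPARγ is a defining transcription factor of these cells. Of the 8 genes, 7 act in the handling of fatty acids or in mitochondria, and Txnip acts chiefly in the handling of glucose: coating and growth of lipid droplets (Plin2, Cidec), control of lipase outside the cell (Angptl4), entry of fatty acids into mitochondria (Cpt1a), the choice between glucose and fat as fuel (Pdk4), transport across the inner mitochondrial membrane (Ucp2, Ucp3) and control of glucose uptake and redox state (Txnip).

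The DNA under 5 regions is shown first, because these are the regions that had peaks in KO lists or a DR1 match beside a WT A summit. All sequences are the plus strand of mm10 (RefSeq, GRCm38.p6), read 5′ to 3′, and extend 50 bp on each side of the centre of the best DR1 match of the region (of both matches in Pdk4). Capitals mark the 13 bases of each match to AGGTCANAGGTCA, read on either strand. The match has 2 mismatches in the 2 Plin2 windows, in Angptl4 and at both places in Pdk4. In Cpt1a the best match of the region has 3 mismatches, 1 more than the limit used for counts.
Plin2, 20.6 kb upstream, chr4:86690228-86690328, plus-strand match: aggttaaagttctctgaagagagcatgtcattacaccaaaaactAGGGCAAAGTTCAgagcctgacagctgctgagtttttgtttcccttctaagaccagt
Plin2, 2.27 kb upstream, chr4:86671947-86672047, minus-strand match: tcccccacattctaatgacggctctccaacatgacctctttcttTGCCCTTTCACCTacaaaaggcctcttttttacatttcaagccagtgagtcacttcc
Angptl4, intron 3, chr17:33779253-33779353, plus-strand match: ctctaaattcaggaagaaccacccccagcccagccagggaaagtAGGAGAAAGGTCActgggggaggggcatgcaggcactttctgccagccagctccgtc
Pdk4, 13.7 kb upstream, chr6:5509783-5509964, 2 plus-strand matches: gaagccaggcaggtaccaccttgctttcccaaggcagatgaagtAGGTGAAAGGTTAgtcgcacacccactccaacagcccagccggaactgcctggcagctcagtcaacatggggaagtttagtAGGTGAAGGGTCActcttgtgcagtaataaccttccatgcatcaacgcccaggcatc
Cpt1a, intron 1, chr19:3325455-3325555, minus-strand match: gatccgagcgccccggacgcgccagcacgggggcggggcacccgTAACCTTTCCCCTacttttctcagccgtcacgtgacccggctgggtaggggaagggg

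The members had 30.5 ± 19.1 peaks in the WT lists (SD, n = 2) and 4 peaks in each KO list. WT libraries thus held 7.62 times as many member peaks as KO libraries, and the groups did not overlap (exact permutation test over libraries, two-sided, p = 0.333, the smallest p that 2 libraries against 2 can give). The WT libraries themselves differed 2.59-fold, and the ratio was 4.25 without WT G and 11.0 without WT A. The whole lists differed in the same direction (4751 and 9766 peaks against 83 and 208). The members made up 0.358% (WT A) and 0.451% (WT G) of the WT lists, and 4.82% (KO A) and 1.92% (KO G) of the KO lists.

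**Figure D1:**
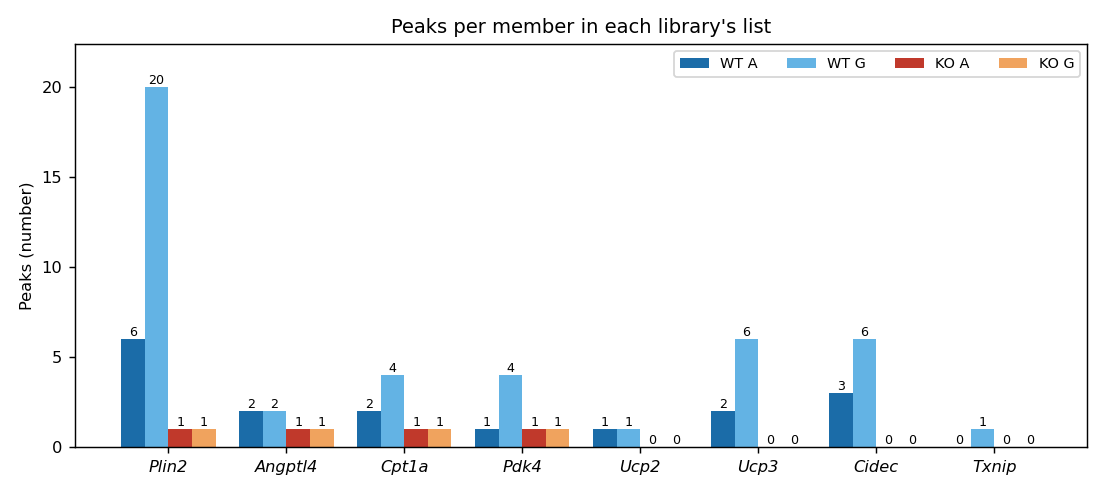
Number of peaks (vertical axis) for each member (horizontal axis) in the 4 lists, with the number above each bar. Plin2 has the most peaks in both WT lists (6 and 20), and only Plin2, Angptl4, Cpt1a and Pdk4 have a peak in the KO lists, 1 each in KO A and KO G.

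When the peaks of the WT lists that overlapped were merged, the members had 44 regions, of which 13 were found in both WT lists (29.5%, exact 95% binomial interval 16.8 to 45.2), against 32.7% of all 10461 WT regions. All 17 member peaks of WT A overlapped a peak of WT G, whereas 13 of the 44 member peaks of WT G overlapped a peak of WT A (the shares over the whole lists were 83.2% and 36.1%). The other 31 regions were in WT G alone, and none was in WT A alone, where 7.64% of all WT regions were found. Of the 8 genes, 7 had a region in both WT lists, and Txnip did not, while 8.82% of the 21924 protein-coding genes were nearest to such a region. The genes were chosen with results of these libraries known, so these counts are a description.

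Of the 13 regions, 4 had a peak in the KO lists (30.8%, exact 95% interval 9.09 to 61.4), and each of the 4 had a peak in both KO A and KO G. Where an overlap of at least 50% of both peaks was required, 5 regions were in both WT lists. With that rule for KO peaks, 1 of the 13 regions had one. Shares over all regions were not counted under this rule, and the shares that follow are for any overlap. Over all 3423 regions in both WT lists, 5.87% had a peak in either KO list and 1.64% in both. The 4 regions belonged to 4 different genes, Plin2, Angptl4, Cpt1a and Pdk4, and no member peak of a KO list lay anywhere else. Among all protein-coding genes, 0.274% (60 genes) were nearest to a peak in each of the KO lists. The Plin2, Angptl4 and Pdk4 regions with KO peaks were also the 3 strongest member regions in both WT lists, whereas the Cpt1a region, at percentile 85.5 of WT A and 94.3 of WT G, stood below a Cidec region without KO peaks in both. Of the 355 regions at or above percentile 90 by −log10 q in both WT lists, 35.2% had a peak in a KO list, and of the 5 member regions among them 3 had (this limit was chosen after the values were seen). The part that strength plays in the count of 4 was not tested.

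**Figure D2:**
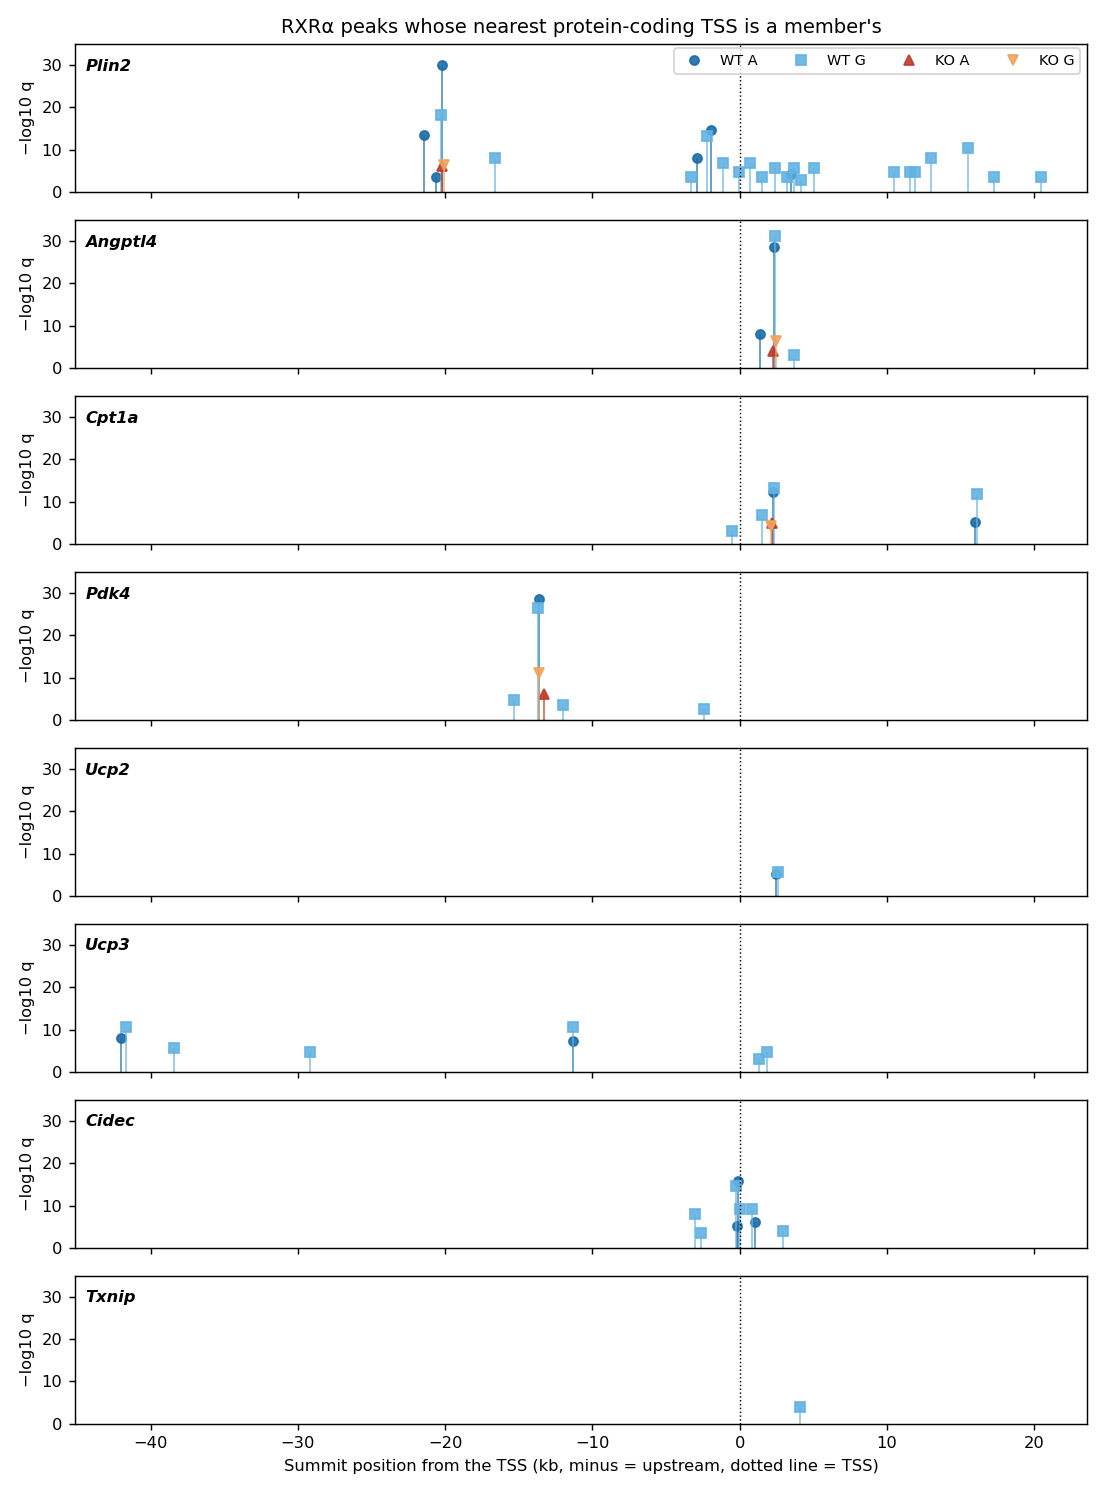
Position of every member peak: distance of the summit from the nearest TSS of the gene in kb (horizontal axis) against −log10 q (vertical axis), with 1 panel for each gene and 1 symbol for each library. The peaks of the KO lists (triangles) stand at or near the tallest WT peak of Plin2, Angptl4, Cpt1a and Pdk4, and the peaks of Plin2 in WT G spread from 20.5 kb downstream to 20.3 kb upstream.

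Plin2 encodes perilipin 2, the coat protein of lipid droplets in most cells outside fat tissue. It had 6 peaks (WT A) and 20 (WT G) in the WT lists and 1 in each KO list. With 20 peaks in WT G it ranked 21st by number of peaks among the 3633 genes with a peak in that list (3 genes shared that number). With 6 in WT A, which fell in 3 regions, it ranked 83rd of 2272 (40 genes shared that number). Plin2 thus gave 6 of the 17 member peaks of WT A and 20 of the 44 of WT G, so the member totals lean on this gene. The neighbouring protein-coding TSSs lie 58.0 kb away (Haus6) and 78.5 kb away (Dennd4c), so the stretch of DNA nearest to the Plin2 TSS is 68.2 kb long.

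The tallest Plin2 region, chr4:86689669-86691706, lies between genes, 20.6 kb upstream of the TSS. Its strongest WT A peak had a −log10 q of 30.0, rank 26 of the list, and its WT G peak 18.2, rank 202. The KO A peak had 6.15, rank 45, and the KO G peak 6.31, rank 60. Fold enrichment was 15.3, 12.3, 7.12 and 7.23 in that order. It is the ratio of ChIP pileup to local input at the summit, each raised by a pseudocount of 1. Both WT values were above both KO values by either measure. The summits fell at almost the same place: those of WT A and KO A coincided, that of KO G was 50 bp and that of WT G 110 bp from them. The DR1 match of this region (AGGGCAAAGTTCA, chr4:86690272-86690284) was 22 bp from the summits of WT A and KO A, 72 bp from that of KO G and 88 bp from that of WT G.

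A 2nd Plin2 region in both WT lists, chr4:86671617-86673035, lies 2.27 kb upstream of the TSS. WT A gave it a −log10 q of 14.7 and WT G one of 13.2, with 24 and 15 fragments at the summit, and no KO list had a peak there. The DR1 match AGGTGAAAGGGCA was 29 bp from the WT A summit and 268 bp from the WT G summit. The 50 bp on each side of the strongest summit also held a PU.1 match and an AP-1 match. The 3rd, chr4:86666158-86666699, lies in intron 3 and had a −log10 q of 4.31 (WT A, percentile 18.9) and 5.73 (WT G, percentile 61.5), with no peak in KO lists.

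The other 17 Plin2 regions were peaks of WT G alone. Over the 20 regions, 11 summits fell inside the gene (9 in introns and 2 in coding exons) and 9 between genes. Together with the shared regions they lay along the gene and past its 3′ end, to 20.4 kb downstream of the TSS. None lay between chr4:86659708 and chr4:86664855, inside the gene. In all members, the 31 peaks of WT G alone had 6 to 13 fragments at the summit (median 8.0) and a median fold enrichment of 5.80, and the 13 WT G peaks in shared regions had 9 to 27 fragments (median 14.0) and a median of 9.67. The peaks found in WT G alone were therefore lower and, at a median of 288 bp against 876 bp, narrower. Over the whole WT G list, the 6239 peaks in no shared region were alike. Their medians were 8.0 fragments, a fold enrichment of 5.73 and a width of 272 bp.

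Cidec encodes a lipid droplet protein that drives the fusion of small droplets into large ones. It had 3 peaks in WT A, 6 in WT G and none in KO lists. The 3 regions in both WT lists lay side by side around its 3 TSSs, within 1 kb of a TSS. The strongest, chr6:113435666-113436740, centred 0.443 kb upstream, reached a −log10 q of 15.8 (WT A) and 14.5 (WT G). At chr6:113434445-113435444, where the WT G summit falls in the untranslated part of an exon, the values were 5.22 and 9.26. At chr6:113433235-113434355, in intron 2, they were 6.16 and 9.26. None of the 3 windows at the summit held a DR1 match.

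Angptl4 encodes a secreted inhibitor of lipoprotein lipase, and an element bound by PPARs in its intron 3 is well known. The region chr17:33778894-33780956 has its strongest summit in that intron and its midpoint 1.91 kb downstream of the TSS. The WT A peak had a −log10 q of 28.6, rank 37 of its list, and the WT G peak 31.3, rank 22. The KO A peak had 3.99, rank 72, and the KO G peak 6.31, rank 60. Fold enrichment was 15.0, 18.1, 6.10 and 7.23. The WT values lay above the KO values, and the WT G peak was the strongest of all member peaks in the 4 lists. The summits of WT A and WT G were 56 bp apart. The peaks of KO A and KO G both overlapped the WT peaks but not each other, with 35 bp between them. The DR1 match of the region (AGGAGAAAGGTCA, chr17:33779297-33779309) was 36 bp from the KO G summit, 127 bp from the WT G summit, 183 bp from the WT A summit and 282 bp from the KO A summit. A 2nd, weak peak in intron 4 was in WT G alone.

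Cpt1a encodes the liver form of carnitine palmitoyltransferase 1, which controls the entry of long-chain fatty acids into mitochondria. The region chr19:3325220-3325938 lies in intron 1, 2.29 kb downstream of the TSS. Its −log10 q was 12.4 (WT A) and 13.2 (WT G) against 5.04 (KO A) and 4.15 (KO G), and fold enrichment was 9.07, 10.3, 6.61 and 6.20. The −log10 p values, before the step to q within each list, were 16.9, 17.7, 10.4 and 9.4 in that order. WT and KO values did not overlap, but they were closer than at the other 3 regions with KO peaks. The WT peaks of those 3 were stronger, and a KO peak is listed only above a floor. How close the values stand is thus partly set by that floor. The best DR1 match, with 3 mismatches, lay between the summits, 36 bp from that of WT A, 103 bp from that of WT G, 34 bp from that of KO A and 56 bp from that of KO G. A further region of intron 1, chr19:3339184-3339752, 16.2 kb downstream of the TSS, was called with a −log10 q of 5.22 (WT A) and 11.8 (WT G), and no KO list had a peak there. The 2 lists ranked it far apart, at percentile 31.2 of WT A and 92.2 of WT G. With all annotated protein-coding transcripts Cpt1a gained 5 peaks, 2 in WT A and 3 in WT G, beside the 8 counted here, and the 5 were otherwise nearest to Tesmin.

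Pdk4 encodes a kinase that switches off pyruvate dehydrogenase and so spares glucose when fat is burned. It had 4 peaks in WT G and 1 in each of the other lists, and none of its 4 regions lay inside the gene. The region in all 4 lists, chr6:5509502-5510477, lies between genes 13.7 kb upstream. The WT A peak had a −log10 q of 28.6, rank 37, and the WT G peak 26.4, rank 41. The KO A peak had 6.15, rank 45, and the KO G peak 11.1, rank 20. Fold enrichment was 15.0, 16.1, 7.12 and 9.30 in that order. The KO G peak was the strongest member peak of the KO lists, at percentile 89.4 of its list, and still below both WT peaks. The summits were spread more widely than at Plin2: those of WT A and KO G were 31 bp apart, and those of WT G and KO A 416 bp. The region held 2 DR1 matches, AGGTGAAAGGTTA at chr6:5509827-5509839 and AGGTGAAGGGTCA at chr6:5509908-5509920. The first was 42 bp from the WT A summit, 73 bp from the KO G summit, 192 bp from the KO A summit and 224 bp from the WT G summit. The other was 39 bp from the WT A summit, 8 bp from that of KO G, 273 bp from that of KO A and 143 bp from that of WT G.

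Ucp2 and Ucp3 encode carriers of the inner mitochondrial membrane and are neighbours on chromosome 7, with 20.3 kb between their TSSs. Ucp2 had a single region, chr7:100495382-100496060 in intron 2, 2.38 kb downstream of the TSS, with a −log10 q of 5.22 (WT A) and 5.73 (WT G) and no peak in KO lists. Ucp3 had 2 peaks in WT A, 6 in WT G and none in KO lists. The region chr7:100461272-100461960, 11.4 kb upstream, reached 7.19 (WT A) and 10.5 (WT G), and the local input background there was raised, to 1.59 and 1.29 times that of the genome. The region chr7:100430966-100431598, 41.7 kb upstream, had values of 8.06 and 10.5. Both regions overlap other genes, the former an exon of the noncoding gene Gm10603 and the latter an intron of C2cd3. Among TSSs of any gene type, all 8 Ucp3 peaks were nearer to Gm10603 or Gm37716, and with all annotated protein-coding transcripts 6 of the 8 were nearer to C2cd3. Other members moved less by their own counts under the first of these rules (2 of 9 Cidec peaks and 1 of 28 Plin2 peaks were nearer to noncoding genes). The region at 11.4 kb held 2 overlapping DR1 matches, 251 and 258 bp from the WT G summit and 321 and 328 bp from the WT A summit.

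Txnip encodes a binding partner of thioredoxin that restrains glucose uptake, and it is known chiefly as a glucose-responsive gene. It had a single peak, in WT G, chr3:96561867-96562134, 4.04 kb downstream of the TSS, at the 3′ end of the gene and in an intron of the noncoding gene Gm15441. It had 8 fragments at the summit, a fold enrichment of 5.26 and a −log10 q of 3.87, at percentile 33.8 of its list. No peak was listed in WT A, KO A or KO G.

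The members' peaks had a higher median strength than the whole list in WT A, WT G and KO G, and a lower one in KO A. In WT A the median fold enrichment of the 17 peaks was 7.50 (range 5.15 to 15.3), against 6.32 over the list, and their median percentile by −log10 q was 65.6. In WT G the 44 peaks had a median of 6.43 (4.51 to 18.1), against 5.80, and a median percentile of 61.5. In KO A the 4 peaks had a median of 6.87 against 7.12, at percentile 33.1, and in KO G 7.23 against 6.20, at percentile 65.4.

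**Figure D3:**
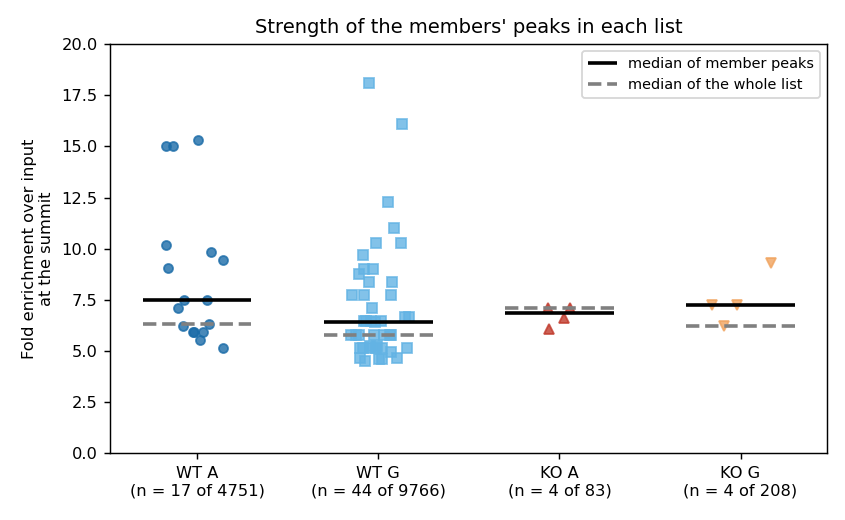
Fold enrichment over input at the summit (vertical axis) of every member peak in the 4 lists, with the median of the members (black line) and of the whole list (dashed grey line). The 3 highest peaks of WT A, at 15.0 to 15.3, and the 3 highest of WT G, at 12.3 to 18.1, belong to the same 3 regions of Plin2, Angptl4 and Pdk4.

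Heights were compared across libraries as fragments at the summit over the genome-wide background of the library, which was 1.25 (WT A), 0.551 (WT G), 0.966 (KO A) and 0.936 (KO G) fragments. Intervals are exact 95% Poisson intervals of the number of fragments and cover counting error only. At the Plin2 region 20.6 kb upstream the height was 26.8 times background in WT A (18.9 to 36.8) and 36.3 in WT G (22.2 to 56.1), and 13.5 in KO A (7.17 to 23.0) and 13.9 in KO G (7.40 to 23.8). At Angptl4 it was 26.1 (18.4 to 35.9) and 49.0 (32.3 to 71.3) in WT, and 11.4 (5.69 to 20.4) and 13.9 (7.40 to 23.8) in KO. At Pdk4 it was 26.1 (18.4 to 35.9) and 43.6 (27.9 to 64.8) in WT, and 13.5 (7.17 to 23.0) and 18.2 (10.6 to 29.1) in KO. At these 3 regions KO heights were 43.7 to 69.7% of that of WT A and 23.2 to 41.7% of that of WT G. The counting intervals mostly overlapped, and the WT G interval stood above both KO intervals at Angptl4 alone.

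At Cpt1a the WT heights were 15.5 (9.71 to 23.5) and 27.2 (15.2 to 44.9), and the KO heights 12.4 (6.42 to 21.7) and 11.8 (5.87 to 21.0). The KO heights were 75.8 to 80.2% of that of WT A and 43.2 to 45.6% of that of WT G, and all 4 intervals overlapped. Over all regions in both WT lists that had a KO A peak, the median height in KO A was 0.707 times that of WT A and 0.467 times that of WT G, against 0.509 and 0.340 over the 4 member regions. For KO G the medians were 0.667 and 0.455 over all such regions and 0.615 and 0.400 over the members. A region enters these ratios only where its KO peak was tall enough to be listed, so the ratios describe the listed peaks and not all RXRα binding left in KO cells. The lowest height listed was 10.4 times background in KO A and 8.55 in KO G, so a low ratio can be seen only at a tall WT region. The Plin2, Angptl4 and Pdk4 regions ranked 26 to 37 in WT A, while the Cpt1a height in WT A left little room for a low ratio. The medians of members and of all regions are therefore not like for like. WT G was higher than WT A at all 13 member regions by this measure, as at 96.6% of the 3423 regions. By fold enrichment it was higher at 12 of the 13 (92.3%), against 60.4% of all regions.

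**Figure D4:**
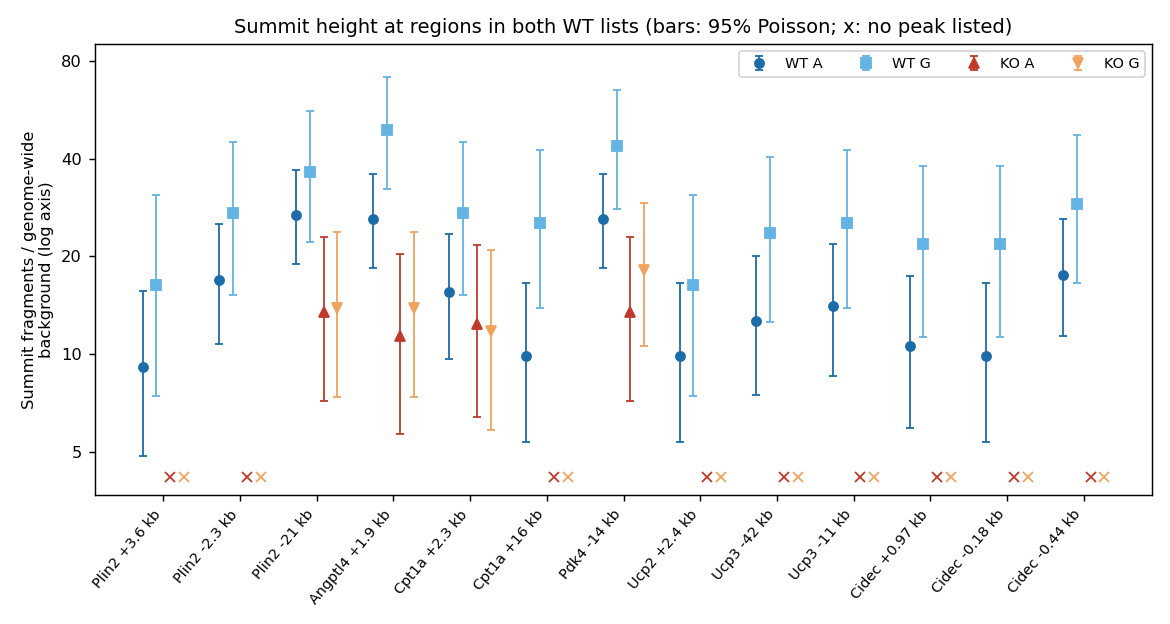
Fragments at the summit divided by the genome-wide background of the library (vertical axis, log scale) at the 13 regions in both WT lists, named by gene and distance from the TSS. Bars are 95% Poisson intervals and crosses mark KO lists without a peak. KO heights at Plin2, Angptl4, Cpt1a and Pdk4 lie between 11.4 and 18.2, below both WT heights of the same region. Over all regions with KO peaks the median KO height was also lower, at 0.455 to 0.707 times that of a WT library. The share of those regions below both WT heights was not counted.

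Absence from a KO list does not show absence of binding. The lowest summit listed had 10 fragments in KO A and 8 in KO G. For the 9 member regions without a KO peak, the height of WT A would have given 8.85 to 17.0 fragments in KO A and 8.57 to 16.5 in KO G, and the height of WT G 15.8 to 28.0 and 15.3 to 27.2. At 4 of the 9, in KO A, a height equal to that of WT A would give an expected 8.85 to 9.53 fragments, just under the lowest summit listed. With counting error such a summit could fall on either side of that limit. A missing peak there thus does not show a difference from WT A. The highest of these values in KO A at the WT A height were 17.0 for the Cidec region upstream of the TSS and 16.3 for the Plin2 region 2.27 kb upstream. Listed KO peaks of the members stood at 43.7 to 80.2% of the WT A height, and at such a share these 2 regions could also lie near or under the floor.

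The 13 regions lay closer to a TSS than the rest: the median distance was 2.38 kb, against 15.7 kb over all 3423 regions. Of the 13, 8 were within 5 kb (61.5% against 27.5%) and 12 within 25 kb (92.3% against 62.0%). Their summits fell in introns in 7 cases, between genes in 4, in an untranslated exon part in 1 and in a noncoding exon in 1. For all regions 55.6% of summits were intronic and 38.7% intergenic. The summits of WT A and WT G were 56 to 280 bp apart (median 154 bp), against a median of 96 bp over all regions, and 10 of the 13 pairs (76.9%) lay within 200 bp, against 81.9% of all pairs.

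A DR1 match with at most 2 mismatches stood within 50 bp of the strongest WT summit in 3 of the 13 regions (23.1%, exact 95% interval 5.04 to 53.8), both upstream regions of Plin2 and the Pdk4 region, against 6.34% of all 3423 regions. The count rests on WT A, whose summit was the strongest in these 3: with each window centred on the summit of 1 library (added after the data were seen), it was 3 at WT A summits (6.51% of all regions) and 0 at WT G summits (5.05%). Anywhere in the region it was found in 5 of 13, with Angptl4 and Ucp3 added, against 21.5%. No member window held a match with at most 1 mismatch, and only 1.26% of all windows did. Member regions were longer (median 976 bp against 574 bp over all), which gives more places for a match, whereas the windows at the summit are of equal length. In the same windows 0 of 13 held DR4 (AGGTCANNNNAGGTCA, 1.9% of all), 0 held DR5 (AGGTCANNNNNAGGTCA, 2.57%) and 0 held C/EBP (TTGCNNAA, 11.0%). PU.1 (GAGGAAGT) was in 1 (4.38%), AP-1 (TGACTCA or TGAGTCA) in 1 (5.49%) and RUNX (TGTGGT) in 2 (14.3%), all on either strand. A match is a run of letters, and its presence or absence does not show which receptor was bound.

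Of 34 other genes that are paralogs of the members or act beside them, 11 had a region in both WT lists (32.4%, against the 8.82% of all protein-coding genes), and 19 had no peak in either WT list (55.9%, against 82.5% of all protein-coding genes). Hilpda, an inhibitor of the lipase that opens lipid droplets, had the strongest WT peaks of the list, with a highest −log10 q of 29.6 (WT A), 29.4 (WT G), 3.95 (KO A) and 7.35 (KO G). Dgat1, an enzyme that makes triglycerides, had 22.0, 14.5, 8.48 and 7.47. These 2 were the only genes of the list with KO peaks, and both had them in KO A and KO G. Lpl, the lipase that Angptl4 inhibits, had 4 regions in both WT lists (17.0 and 14.5), Mgll, which splits monoglycerides, had 3 (10.2 and 15.9), and Abhd5, an activator of the droplet lipase, had 2 (14.7 and 9.26). Pnpla2, Cpt2, Slc25a20, Pdk3, Arrdc3 and Arrdc4 also had such regions.

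Several close relatives of the members had no peak, as did most genes. In both WT lists none was nearest to Plin1, Plin3, Plin4, Plin5, Cidea, Cideb, Cpt1b, Cpt1c, Pdk2, Ucp1, Arrdc1 or Arrdc2. Within their families, Plin2 and Cidec were the only perilipin and Cide genes with a peak in any of the 4 lists, and Cpt1a the only Cpt1 gene. Of the Pdk family, Pdk1 had a peak in WT G alone (−log10 q 3.61) and Pdk3 a region in both WT lists (3.43 and 4.64), below the Pdk4 region (28.6 and 26.4).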

How the data were processed

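RXRα HT-ChIPmentation was performed on AMs of 2 WT and 2 KO libraries, with groups and letters taken from the sample labels. Per the study's methods, reads were trimmed (Cutadapt), aligned to mm10 (Bowtie2), stripped of duplicates and filtered (SAMtools), and peaks were called per library against the input with MACS3 at q 0.05. The deposited fold enrichment is the ratio of pileup to local background, both raised by a pseudocount of 1. Each summit has a deposited −log10 p and −log10 q, and the deposited score is derived from the latter. Genotypes were modelled in the study from read counts, which peak lists do not hold, so peak numbers and overlaps were compared here.

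The members and gene lists were chosen with earlier results of these data known. Peaks were assigned by midpoint to the nearest protein-coding TSS (GENCODE M21, basic set), and WT peaks that overlapped by at least 1 bp were merged. Genotypes were compared by an exact permutation test (two-sided). Replicates may be technical, and the p then measures only the spread between these libraries. All 8 genes and each of their regions in both WT lists were described singly, and of the other genes the 5 with the highest −log10 q were given values. Pdk1 and Pdk3 were added after their values were seen. Percentile is the rank by −log10 q within a list. Binomial intervals are Clopper-Pearson. Whole fragments at each summit were solved from those 2 deposited columns (fold enrichment, −log10 p), within 0.005 of the −log10 p, for 4750 of 4751 peaks of WT A (whose pileup was scaled by 0.884) and for all peaks of the other lists. The most frequent background was taken as genome-wide. Python 3.11.15 with pandas 2.3.3, numpy 2.4.6, scipy 1.17.1 and pysam 0.24.0 was used, and scripts were tested on simulated data.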

Additional observations from a re-analysis of the deposited data

How the results depend on the processing

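Of 52 alternative values, 46 stayed within the limits set (the same direction for the WT to KO ratio, 1.5-fold for counts of regions, 1 SD between the WT libraries for medians), and none reversed. Counts of regions and medians have no direction that could reverse, and some alternatives could not change a value. A limit of 100 kb from the TSS removed no member peak. Both KO lists held 4 peaks, so leaving out either kept the ratio at 7.62. The tally is thus a weak measure of stability. Requiring an overlap of at least 50% of both peaks left 5 regions in both WT lists and 1 WT region with a KO peak, in place of 13 and 4. With all annotated protein-coding transcripts the median percentile of member peaks fell to 55.2 from 63.5 (mean of the 2 WT libraries). Regions with a DR1 match numbered 0 with at most 1 mismatch, 0 at the WT G summits (added after seeing the data) and 5 over the whole region, in place of 3. Leaving out each library in turn gave a WT to KO ratio of peak numbers of 4.25 to 11.0, 4 regions with a KO peak each time, and a median fold enrichment of 6.43 to 7.50, around a value of 6.96 over both WT libraries. No value of the median fold enrichment was made without a KO library, since it uses WT peaks only. With WT G held to the number of peaks of WT A, the ratio was 5.12, and 13 and 4 regions stayed. In a replicate block, pairing the libraries by letter, the ratio was 6.84 (4.25 for A and 11.0 for G); with 2 pairs, whether the letters pair the libraries was not tested. Counting regions only at or above percentile 90 in both WT lists, an alternative chosen after seeing the data, gave 3 with a KO peak. Depth limits the precision of each height: a member summit in WT G rests on 6 to 27 fragments.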
